A study of Oikopleura dioica with 12 samples.

Results

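The 9 gene models described here encode orthologs of human TOP mRNAs and stand side by side in 4 places of the *Oikopleura dioica* genome: RPL17 with RPL8, RPL4 with FAU, RPL19 with RPS27A, and RPL35A with NAP1L1 and RPS23. They are a named selection among the study's TOP orthologs with consecutive identifiers, made with earlier results of these data known, and not all such neighbours. Strands and gaps were read from the deposited annotation. They are 9 of 17212 genes in the count table, and all 9 were among the 14574 genes that passed the filter of at least 100 reads over all libraries. The 4 groups were ribosome-protected fragments (RPFs, stretches of mRNA that a ribosome shields from nuclease) and total RNA, each from day 6 female animals held for 1.5 h in seawater with 1 μM Torin 1 or with the solvent DMSO. Each group had 3 biological replicates (12 libraries). Torin 1 blocks the kinase mTOR. Every library was made from whole females, so that levels are averages over all tissues, and fewer cells of a type and less RNA per cell cannot be told apart.

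TOP mRNAs carry a pyrimidine tract at the 5′ end in vertebrates and encode mostly ribosomal proteins, and mTOR keeps them on ribosomes while nutrients are plentiful. In *O. dioica*, a planktonic tunicate, many mRNAs instead receive their 5′ end from a separate RNA, the spliced leader, by *trans*-splicing. Genes of this species are often packed head to tail in operons, where a shared precursor RNA is cut into separate mRNAs and the leader caps the downstream ones. Neighbours in an operon share a promoter, but each mature mRNA has its own stability and is translated on its own. The study's list gives a spliced leader for all 9 genes.

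One of the 9, RPL35A, was also a target of the study's qPCR. Its oligonucleotides are shown since they are the designed sequences tied to these genes, with 2 primer pairs for this gene on scaffold 21. No letters are capitalised, because no motif is marked in them.
RPL35A target 1 forward: aaacacgcacgaaaagtccg
RPL35A target 1 reverse: ccatagccttgggtggaagg
RPL35A target 2 forward: cctctcctcttcccgagaca
RPL35A target 2 reverse: gacggtgttccagagcttga
Each is 20 bases long, with a GC content of 50% to 60%.

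Positions are those of the deposited Genoscope gene models (version 1.0, on scaffolds). RPL17 (GSOIDG00000667001, scaffold 1, 2117222 to 2118048, plus strand, 3 coding exons) and RPL8 (GSOIDG00000668001, scaffold 1, 2118049 to 2120384, plus strand, 3 coding exons) touch, with a gap of 0 bases. The 3′ UTR of the RPL17 model ends where the RPL8 model begins, and the RPL8 model has a 3′ UTR of 1167 bases, against 44 to 212 bases in the other 8. RPL19 (GSOIDG00013614001, scaffold 5, 1549592 to 1550345, plus strand, 3 coding exons) is followed after 15 bases by RPS27A (GSOIDG00013615001, scaffold 5, 1550361 to 1551293, plus strand, 3 coding exons). These 2 pairs lie head to tail.

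The trio on scaffold 21 runs on the minus strand. In the direction of transcription RPL35A (GSOIDG00007831001, 579102 to 580010, 3 coding exons) comes first, NAP1L1 (GSOIDG00007830001, 577364 to 579074, 6 coding exons) follows after 27 bases, and RPS23 (GSOIDG00007829001, 576676 to 577332, 3 coding exons) after 31 more. RPL4 (GSOIDG00000869001, scaffold 1, 2671428 to 2672663, minus strand, 2 coding exons) and FAU (GSOIDG00000870001, scaffold 1, 2673060 to 2673973, plus strand, 3 coding exons) differ from the rest: they point away from each other, with 396 bases between their 5′ ends. They are thus not in 1 head-to-tail run.

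**Figure D1:**
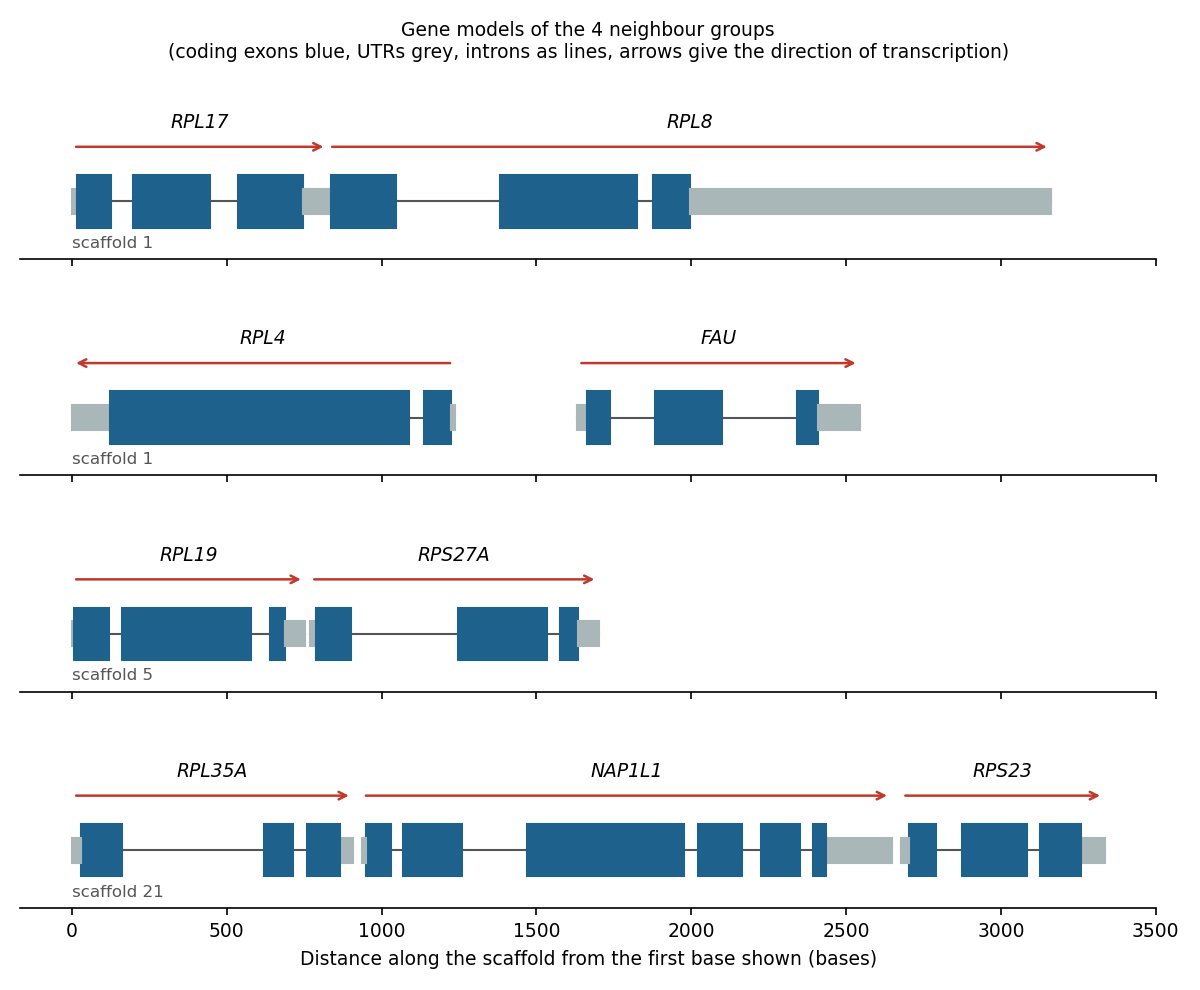
Gene models of the 4 neighbour groups drawn to scale, with the distance in bases from the first base shown on the horizontal axis (the trio is drawn in its direction of transcription), coding exons in blue, UTRs in grey and an arrow for the direction of transcription. RPL4 and FAU point away from each other, and the other 3 groups run head to tail with gaps of 0 to 31 bases.

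With neighbours on 1 strand and a gap of at most 60 bases taken as a run, the layout of an operon, the head-to-tail groups sat inside longer runs. RPL17 and RPL8 were genes 2 and 3 of a run of 3, RPL19 and RPS27A genes 2 and 3 of 4, and RPL35A, NAP1L1 and RPS23 genes 2 to 4 of 4. FAU was the first gene of another run of 4, and RPL4 stood alone. Thus 7 of the 9 lie downstream in a predicted operon.

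The libraries differed much in depth and some stood apart. RNA libraries held 7520819 to 27462750 counts, and RPF DMSO replicate 1 held 22889270, but the other 5 RPF libraries held 91549 (Torin 1 replicate 3) to 874562. In the shallowest library the 9 genes had 3 to 49 counts each, and a count of 0 there would allow up to 32.8 RPM (counts scaled to the library total). 1 gene took 42.7% of that library, 21.2% of RPF Torin 1 replicate 1 and 17.9% of RPF DMSO replicate 3, which lowers the RPM of all others in them. The RNA libraries of Torin 1 replicate 2 and DMSO replicate 2 were nearly equal: their counts differed with a chi-square of 1.07 per degree of freedom over genes, against 27.1 to 835 for the other 14 pairs of RNA libraries. Both were kept, as they carry different labels, and results are also given without the 4 libraries in doubt (these 2, the deep RPF DMSO library and RNA Torin 1 replicate 3) where that matters. The labelled sex and tissue could not be checked against marker genes, as gene names came with the TOP list only.

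The first comparison asked whether RPFs of these neighbours were lower when mTOR was inhibited. Comparing libraries of equal number, RPFs were lower in Torin 1 than in DMSO 3 times out of 3 for 9 of 9 genes (15.5% of all genes tested), and the 2 groups did not overlap for 7 of 9 (8.18% of all genes). None of these differences passed the test: edgeR's quasi-likelihood test called 0 of 9 at an adjusted p under 0.05, as it did 0% of all genes (by unadjusted p under 0.05, 600 were lower and 190 higher, and DESeq2 gave 0 adjusted calls). At an unadjusted p under 0.05, 3 of 9 were lower (NAP1L1, RPL35A and RPL4), against 4.12% of all genes and 41 of the 77 other TOP orthologs. All 9 log2 fold changes were negative (61% of all genes). Their median was −1.41, where all genes had −0.24 and the other TOP orthologs −1.47.

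Together the 9 genes took 0.156%, 0.122% and 0.264% of RPF counts in Torin 1, and 0.710%, 0.277% and 0.451% in DMSO. RPF DMSO replicate 1, the deep library, had the highest share of all 6. Without it the log2 fold changes of the 9 ran from −1.58 (NAP1L1) to −0.55 (RPS27A), beside a median of 0.01 for all genes. 0 of 9 were called lower in that setting (0.0206% of all genes, 3 lower and 43 higher).

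**Figure D2:**
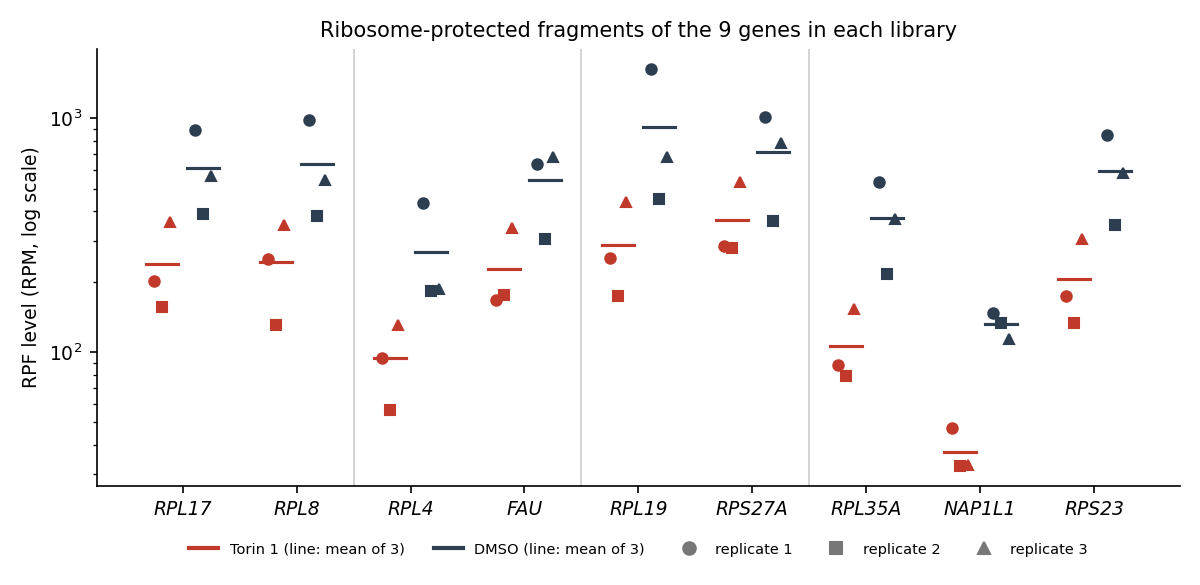
RPF level of each gene in each library, in RPM on a log axis, with Torin 1 in red left of DMSO in dark blue, marker shapes for replicates and lines for means of 3. The groups overlap only for FAU and RPS27A, and the highest DMSO point of 8 genes is replicate 1.

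In total RNA none of the neighbours passed the test. Their log2 fold changes ran from −0.54 (NAP1L1) to −0.11 (RPL19), median −0.24, where the median of all genes was 0.22 and that of the other TOP orthologs −0.24. All 9 were negative (44.2% of all genes), and 3 of 9 were lower at every replicate number (18.6%). edgeR called 0 of 9 (0% of all genes). By unadjusted p under 0.05 it had 0 of 9 lower (0.0274% of all genes, 4 lower and 1465 higher). DESeq2 called 81 genes higher (0.586%) and 0 of 9. The groups did not overlap for 0 of 9 genes (7.74% of all genes lower without overlap). NAP1L1 had −0.94 without RNA Torin 1 replicate 2 and −0.19 without RNA Torin 1 replicate 1. Without RNA DMSO replicate 2 the value of RPL19 was 0.06, and without RNA Torin 1 replicate 3 it was 0.02.

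Translational efficiency, the RPF level relative to RNA, had a median log2 change of −0.91 over the 9 genes. All genes had −0.46 and the other TOP orthologs −1.09. RPL35A had the most negative value (−1.38, SE 0.73) and RPS27A the least (−0.50, SE 0.77). Without RPF DMSO replicate 1 the 9 values ran from −1.10 (RPL35A) to −0.24 (RPS27A), with −0.68 for RPL19 and −0.40 for RPL8, beside a median of −0.15 for all genes. The interaction test of edgeR called 0 of 9 (0% of all genes), and the lowest adjusted p among them was 0.752. By unadjusted p under 0.05, 0 of 9 were lower (7.5% of all genes, 1093 lower and 30 higher), although all 9 values were negative (66.3%). DESeq2 called 144 genes lower (1.02%) and 1 higher, and 0 of 9. Efficiency was lower at every replicate number for 5 of 9 (11.1% of all genes), and without overlap for 0 of 9 (3.15%). Without the 4 libraries in doubt NAP1L1 had 0.35. In that setting RNA Torin 1 replicate 1, where NAP1L1 RNA was lowest, is the only Torin 1 RNA library left.

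**Figure D3:**
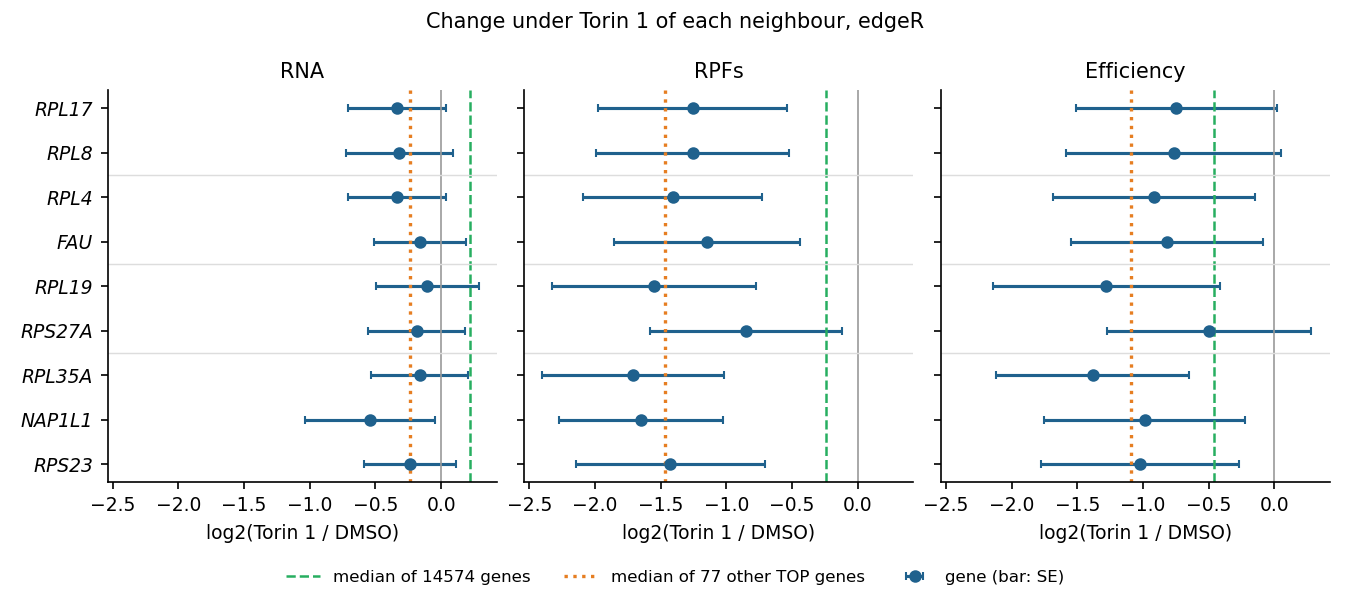
Log2 change under Torin 1 relative to DMSO of each gene in RNA, RPFs and efficiency (points, with SE as bars), with the median of all 14574 genes tested as a dashed line and that of the 77 other TOP orthologs as a dotted line. All 9 points lie left of the dashed line in each panel, in RPFs between −1.71 and −0.85.

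RPL17 and RPL8 encode large-subunit proteins, RPL17 at the tunnel through which the new chain leaves and RPL8 near the catalytic centre. RPFs of RPL17 stood at 200.4, 156 and 360.5 RPM in Torin 1 replicates 1 to 3, against 889, 389.9 and 568 RPM in DMSO. RPFs of RPL8 stood at 249, 130.4 and 349.5 RPM in Torin 1, against 979.5, 381 and 544 RPM in DMSO. For both genes replicate 3 was the highest of the Torin 1 libraries and lay just below the lowest DMSO library, replicate 2. Their log2 fold changes were −1.26 each (SE 0.72 for RPL17 and 0.73 for RPL8, adjusted p = 0.930 for both by edgeR).

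RNA of RPL17 stood at 1291, 1537 and 763 RPM in Torin 1, against 1548, 1547 and 1458 RPM in DMSO. RNA of RPL8 stood at 1404, 1875 and 820.3 RPM in Torin 1, against 1573, 1905 and 1639 RPM in DMSO. The low Torin 1 value of both came from replicate 3, and the nearly equal replicate 2 libraries gave nearly equal values. Downstream RPL8 took 55.4%, 45.5% and 49.2% of the pair's RPF counts in Torin 1, against 52.4%, 49.4% and 48.9% in DMSO. Of the pair's RNA counts it took 51.8% to 54.96% in Torin 1 and 50.4% to 55.2% in DMSO. The 2 touching genes thus had almost equal counts in all 12 libraries.

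Per coding base, which allows for the longer RPL8, its RNA level was 0.830 times that of RPL17 (log2 ratio −0.27 ± 0.11, SD, n = 6 libraries, two-sided exact sign-flip permutation test, p = 0.03125, adjusted p = 0.0375 over the 6 pairs). In RPFs it was 0.744 times (log2 ratio −0.43 ± 0.20, SD, n = 6, same exact p values). If exon length with UTRs is used, the RNA log2 ratio is −1.38, as the long 3′ UTR of RPL8 enters.

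RPL4 lines the same exit tunnel, and FAU encodes a ubiquitin-like protein fused to a small-subunit protein. RPFs of RPL4 stood at 94.6, 56.6 and 131 RPM in Torin 1, against 433, 183 and 185 RPM in DMSO. RPFs of FAU stood at 167, 175 and 339 RPM in Torin 1, against 637, 304 and 685 RPM in DMSO. The groups did not overlap for RPL4, whereas FAU in Torin 1 replicate 3 was above DMSO replicate 2. The log2 fold changes were −1.41 for RPL4 (SE 0.68, adjusted p = 0.910) and −1.15 for FAU (SE 0.71, adjusted p = 0.930 by edgeR).

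RNA of RPL4 stood at 364, 576 and 279.7 RPM in Torin 1, against 530.0, 571 and 458 RPM in DMSO. RNA of FAU stood at 852, 1049 and 606 RPM in Torin 1, against 876, 1028 and 913 RPM in DMSO. Both groups overlapped. Per coding base FAU had 5.65 times the RNA of RPL4 (log2 ratio 2.50 ± 0.19, SD, n = 6, exact permutation p = 0.03125, adjusted p = 0.0375) and 6.46 times the RPFs (2.69 ± 0.53, SD, n = 6, same exact p values). FAU took 63.8%, 75.6% and 72.1% of the RPF counts of both in Torin 1, against 59.5%, 62.4% and 78.7% in DMSO. This was the only head-to-head group.

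A second RPL4 model (GSOIDG00013547001) had a log2 change of −1.74 in RPFs and −0.01 in RNA. Its RPFs stood at 80.7, 63.5 and 76.5 RPM in Torin 1, against 265, 240.1 and 302 RPM in DMSO. How reads that match both models were counted is not given in the sources used here, so that the split between them is uncertain.

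RPL19 encodes a large-subunit protein that reaches towards the small subunit, and RPS27A encodes ubiquitin fused to a small-subunit protein. RPFs of RPL19 stood at 253, 173 and 437 RPM in Torin 1, against 1623, 451 and 682 RPM in DMSO. RPFs of RPS27A stood at 284, 279.7 and 535 RPM in Torin 1, against 1011, 364 and 783 RPM in DMSO. The groups of RPL19 were apart by a narrow margin and those of RPS27A overlapped. The log2 fold change was −1.55 for RPL19 (SE 0.78, adjusted p = 0.910) and −0.85 for RPS27A (SE 0.73, adjusted p = 0.946 by edgeR), which is the least negative of the 9. Without RPF DMSO replicate 1, where RPL19 stood highest of all 9 genes, the value for RPL19 was −0.90.

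RNA of RPL19 stood at 1980.3, 2581 and 1369 RPM in Torin 1, against 1835, 2559 and 2003 RPM in DMSO. RNA of RPS27A stood at 1326, 1641 and 1102 RPM in Torin 1, against 1237, 1648 and 1741 RPM in DMSO. For both genes the groups overlapped and replicate 1 was higher in Torin 1 than in DMSO. RPS27A took 52.8%, 61.7% and 55.1% of the pair's RPF counts in Torin 1, against 38.4%, 44.7% and 53.5% in DMSO. In RNA it took 40.1%, 38.9% and 44.6% in Torin 1, against 40.3%, 39.2% and 46.5% in DMSO. So the RPF share was above the RNA share of the same collection in all 3 Torin 1 and in 2 of 3 DMSO collections, the exception being DMSO replicate 1.

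The per-base level of RPS27A did not pass the test against RPL19 in RNA (log2 ratio −0.17 ± 0.19, SD, n = 6, exact permutation p = 0.125) nor in RPFs (0.38 ± 0.48, SD, n = 6, exact permutation p = 0.09375). Its RPF share relative to its RNA share was the largest such difference of the 6 pairs, 0.55 ± 0.49 on the log2 scale (SD, n = 6 collections, exact permutation p = 0.0625, adjusted p = 0.375). Between treatments that difference was 0.90 in Torin 1 and 0.20 in DMSO, with an exact permutation p of 0.1, the smallest that 3 against 3 can give, and an adjusted p of 0.6.

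The trio joins 2 ribosomal protein genes and NAP1L1, which encodes a histone chaperone that helps to assemble nucleosomes. RPL35A is a protein of the large subunit, and RPS23 sits where the small subunit reads the codons. RPFs of RPL35A stood at 87.7, 78.9 and 153 RPM in Torin 1, against 532, 215 and 371 RPM in DMSO. RPFs of NAP1L1 stood at 47.3, 32.6 and 32.8 RPM in Torin 1, against 147, 134 and 114 RPM in DMSO. RPFs of RPS23 stood at 174, 134 and 306 RPM in Torin 1, against 849, 351 and 583 RPM in DMSO. All 3 genes had their Torin 1 libraries below their DMSO libraries, although NAP1L1 rested on 34, 19 and 3 counts in Torin 1.

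RPL35A had a log2 fold change of −1.71 in RPFs (SE 0.69, unadjusted p = 0.0204), the most negative of the 9 genes. NAP1L1 followed with −1.65 (SE 0.63, unadjusted p = 0.0141), and RPS23 had −1.43 (SE 0.72, unadjusted p = 0.0583). By edgeR's quasi-likelihood test the adjusted p was 0.910 for all 3.

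RNA of RPL35A stood at 644, 782 and 405 RPM in Torin 1, against 615, 815 and 627 RPM in DMSO. RNA of NAP1L1 stood at 98.6, 308 and 208 RPM in Torin 1, against 247, 297 and 361 RPM in DMSO. RNA of RPS23 stood at 1146, 1399.7 and 861 RPM in Torin 1, against 1259, 1408 and 1367 RPM in DMSO. NAP1L1 stood out by its spread: in Torin 1 replicate 1 it had 13.3% of the RNA counts of itself and RPL35A, against 26.7% to 36.6% in the other 5 RNA libraries. That library carried 836 counts of NAP1L1.

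Levels within the trio differed by far more than in the other head-to-tail groups. Per coding base NAP1L1 had 0.116 times the RNA of RPL35A just upstream (log2 ratio −3.11 ± 0.67, SD, n = 6, exact permutation p = 0.03125, adjusted p = 0.0375). RPS23, just downstream, had 13.01 times the RNA of NAP1L1 (3.70 ± 0.59, SD, n = 6, same exact p values) and 1.50 times that of RPL35A (0.59 ± 0.15, SD, n = 6, same exact p values). RPFs followed the same order. There the log2 ratios were −3.09 ± 0.55 for NAP1L1 over RPL35A, 3.52 ± 0.57 for RPS23 over NAP1L1 and 0.43 ± 0.15 for RPS23 over RPL35A (SD, n = 6 each, exact permutation p = 0.03125, adjusted p = 0.0375).

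Over the 6 pairs, levels differed between the 2 genes in 5 of 6 for RNA and in the same 5 for RPFs, with RPS27A and RPL19 as the exception. RPS23 and RPL35A are not adjacent, and their ratio follows from the 2 other ratios of the trio, so the 5 calls are not independent. These calls need all 6 libraries, since the smallest p with 5 is 0.0625, and the nearly equal RNA libraries of replicate 2 count as 2 in them. Whether ribosomes changed the proportion was asked by setting the RPF ratio against the RNA ratio of the same collection. No pair passed the test: apart from RPS27A over RPL19, the 5 differences lay between −0.19 and 0.19 on the log2 scale with adjusted exact permutation p values of 0.4375 or more. Their SDs ran from 0.22 (RPS23 over RPL35A) to 1.12 (NAP1L1 over RPL35A), so that for NAP1L1 only large shifts could have been seen.

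Torin 1 did not move the ratio of any pair past the test either, in RNA, RPFs or RPFs relative to RNA, where the smallest p that 3 against 3 allows is 0.1. In RPFs this smallest exact permutation p was reached by RPS23 over RPL35A (log2 count ratio 0.90 in Torin 1 and 0.68 in DMSO, adjusted p = 0.6). RPS27A over RPL19 had 0.38 in Torin 1 and −0.26 in DMSO (exact permutation p = 0.2, adjusted p = 0.6). The smallest difference was that of RPL8 over RPL17, with a log2 count ratio of 0.004 in Torin 1 and 0.015 in DMSO.

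**Figure D4:**
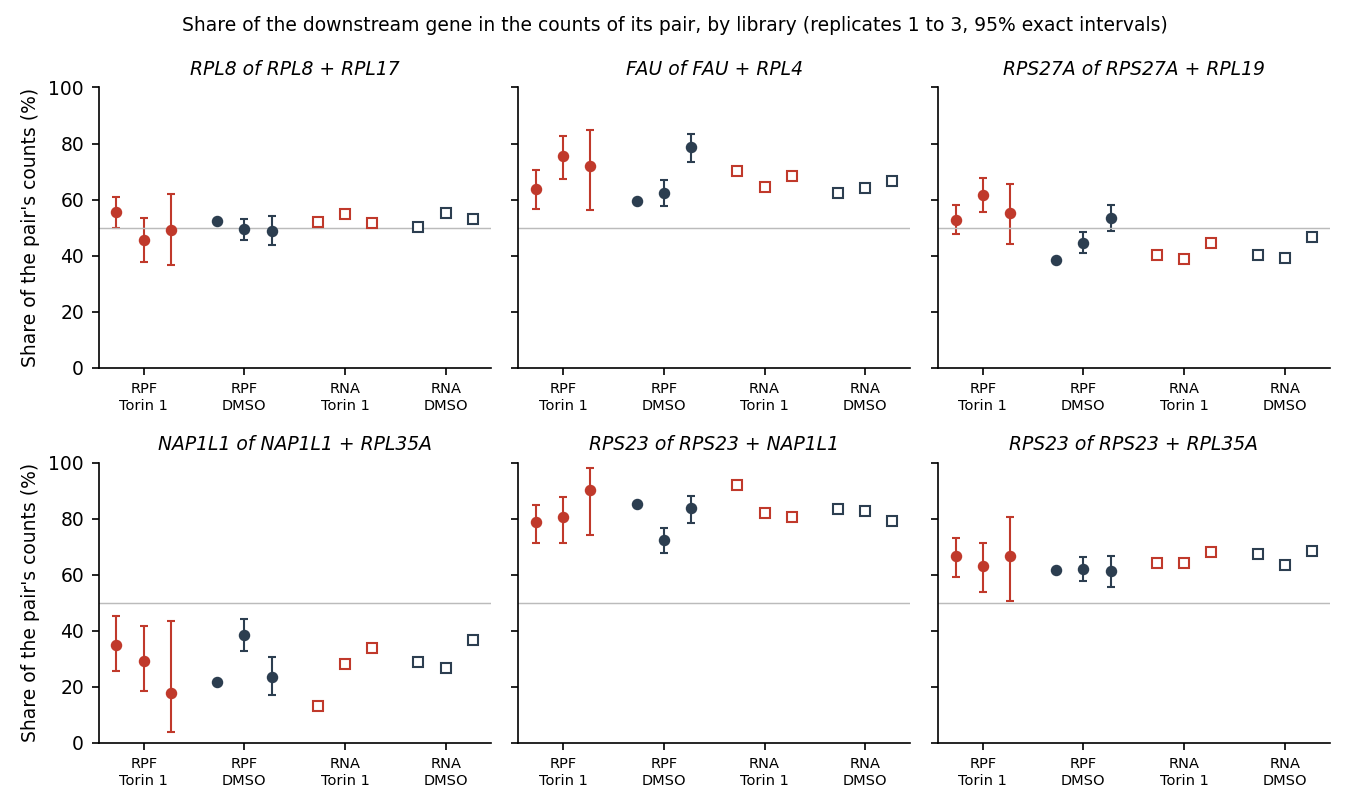
Share of the downstream gene in the counts of its pair (percent, with exact 95% intervals that cover counting error only) for replicates 1 to 3 of each group, RPFs as filled and RNA as open symbols, Torin 1 in red left of DMSO in dark blue. For RPL4 and FAU, which lie head to head with neither downstream, the share is that of FAU. RPL8 stays between 45.5% and 55.4% in all 12 libraries, and RPS27A is above 50% in 3 Torin 1 RPF libraries and 1 DMSO RPF library.

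The order of the 9 genes per coding base was stable between treatments at its ends. In RNA from DMSO animals RPL19 was highest with 3682 ± 655 RPKM (SD, n = 3), where RPKM are RPM per kilobase of coding sequence. RPS27A (3338 RPKM) and RPS23 (3113 RPKM) followed without a gap beyond their spread. RPL17, FAU, RPL8 and RPL35A lay between 2663 and 2041 RPKM, each overlapping with the next. RPL4 (493.8 RPKM) and NAP1L1 (279.7 ± 52.9 RPKM, SD, n = 3) were below all of these and did not overlap with each other. How reads were split between RPL4 and its second model is uncertain, which bears on its level and on its ratio to FAU. In Torin 1 the RNA order began with the same 3 genes and ended with RPL4 (386 RPKM) and NAP1L1 (189.9 RPKM), which overlapped there.

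RPFs per coding base gave another order of the means at the top, with overlapping libraries. In Torin 1 RPS27A (793 ± 317 RPKM, SD, n = 3) and FAU (625 RPKM) stood first, followed by RPL19 with 497 RPKM, each overlapping with the next. In DMSO RPL19 (1586 RPKM), RPS27A (1557 RPKM) and FAU (1493 RPKM) were first with overlapping libraries. RPL4 and NAP1L1 were the lowest in both, NAP1L1 with 34.8 RPKM in Torin 1 and 122 RPKM in DMSO.

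**Figure D5:**
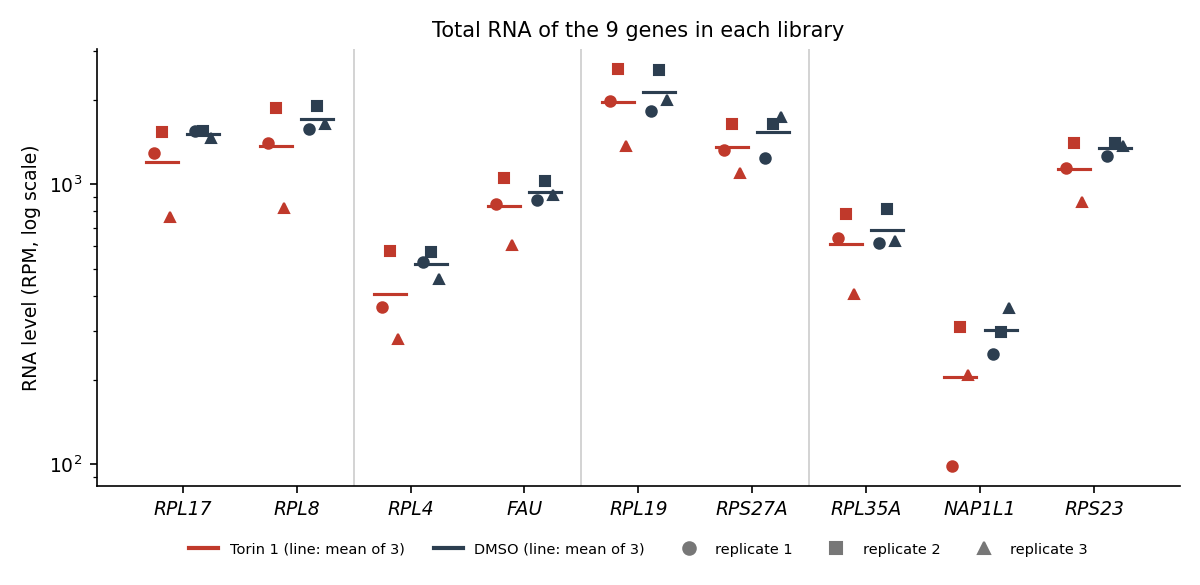
Total RNA level of each gene in each library, in RPM on a log axis, with Torin 1 in red left of DMSO in dark blue, marker shapes for replicates and lines for means of 3. Torin 1 and DMSO overlap for all 9 genes, and NAP1L1 lies lowest, with Torin 1 replicate 1 at 98.6 RPM.

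RPFs were also compared with RNA inside each treatment, to ask how densely these mRNAs carried ribosomes relative to others. In DMSO animals all 9 log2 ratios were negative, from −1.18 (RPL8) to −0.56 (FAU), while 45.1% of all genes were. Their median was −0.94, that of all genes 0.17 and that of the other TOP orthologs −0.78. The RPL8 model has the longest 3′ UTR of the 9 (1167 bases), and whether RNA reads from it lower the RPL8 ratio was not tested. RPF values lay below RNA values without overlap for 9 of 9 (28.2% of all genes), and at every replicate number for 9 of 9 (35.3%). edgeR called 0 of 9 lower, against 1.21% of all genes, and 0 of 9 higher, against 6.79%. These are 176 genes lower and 990 higher, or 624 and 720 with library totals in place of TMM. By unadjusted p under 0.05, 0 of 9 were lower (11.3% of all genes). DESeq2 called 0 of 9, against 4.18% of all genes lower and 8.52% higher. Without RPF DMSO replicate 1, 5 of 9 passed the threshold: RPL19 (−1.76), RPL8 (−1.73), RPL17 (−1.51), RPS23 (−1.38) and RPL4 (−1.32), with adjusted p from 0.0222 to 0.0487 by edgeR. In that setting 12.9% of all genes were called lower (1879 lower and 1007 higher), and the median of all genes was −0.25. Without the libraries in doubt, which also leaves out RNA DMSO replicate 2, none of these 5 calls remained. There 1441 of all genes were called lower and 1144 higher. RPF DMSO replicate 1 was the single library whose removal changed an edgeR call on any of the 9 genes taken singly.

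In Torin 1 animals the ratios ran from −2.34 (RPL19) to −1.45 (FAU and RPS27A), all negative (63.4% of all genes). Their median was −2.02, that of all genes −0.42 and that of the other TOP orthologs −1.86. RPFs lay below RNA without overlap for 9 of 9 (31.2% of all genes), and at every replicate number for 9 of 9 (42.4%). By edgeR 7 of 9 had an unadjusted p under 0.05 (9.21% of all genes), but 0 of 9 passed after adjustment (0% of all genes, lowest adjusted p = 0.361). DESeq2 called RPL19 (−2.21), RPL35A (−1.996) and RPS23 (−1.92) lower, 3 of 9, against 0.463% of all genes (65 lower and 83 higher).

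Collection by collection, the ratio of RPF to RNA in RPM showed how uneven the replicates were. The median over the 9 genes was 0.177, 0.101 and 0.426 in Torin 1 replicates 1 to 3, against 0.727, 0.252 and 0.404 in DMSO. In Torin 1 replicate 3, the shallowest RPF library, only 1 of 9 (NAP1L1) lay below the median of all genes, whereas 8 or 9 did in the other 2 Torin 1 collections. In DMSO 5, 9 and 8 of 9 were below it. Torin 1 replicate 3 held 91549 RPF counts, 42.7% of them in 1 gene, so its median over 14565 genes rests on few counts per gene. RPL19 shows the extremes, with 0.128, 0.0671 and 0.319 in Torin 1 and 0.885, 0.176 and 0.340 in DMSO. The 2 treatments overlapped in this ratio for every one of the 9 genes.

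How closely neighbours moved together was measured by the SD of their log2 ratio over the 6 libraries of an assay, where 0 would mean a fixed ratio. Ranks by this SD were not matched for count level. Genes with few counts have larger SDs by counting error alone, so abundant genes rank closer to each other. RPL8 had an SD of 0.108 against RPL17 in RNA and ranked 26th among 14573 genes by closeness to RPL17. In RPFs the SD was 0.195, about that of counting error alone (0.200), with rank 13. RPS23 ranked 89th by closeness to RPL35A in RNA (SD 0.147) and 2nd in RPFs (SD 0.150), below the SD of 0.255 that counting error would give.

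NAP1L1, between them in the genome, tracked them less closely in RNA over all 6 libraries. Against RPL35A its SD was 0.674 and its rank 5856 of 14573 (median SD over all genes 0.826), and RPS23 ranked 4710th from NAP1L1 (SD 0.587). Without RNA Torin 1 replicate 1 these SDs were 0.281 and 0.168. In RPFs NAP1L1 ranked 165th from RPL35A (SD 0.553) and RPS23 324th from NAP1L1 (SD 0.570). In RNA FAU ranked 271st from RPL4 (SD 0.187) and RPS27A 147th from RPL19 (SD 0.188). These ranks describe 6 libraries, 2 of which are nearly equal in RNA. Without those, RPL8 ranked 12th from RPL17 (SD 0.0603), RPS23 185th from RPL35A, RPS27A 444th from RPL19 and FAU 597th from RPL4. Without RPF DMSO replicate 1 the RPF ranks of RPL8 and RPS23 were 40 and 10.

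The 3 genes closest to each member in RNA did not include its neighbours. RPL35A had RPL31 (SD 0.0392) and RPL22 (SD 0.0433) among its 3 nearest genes, RPL8 had RPL11 and RPS26, and RPL17 had RPLP0 and RPL5. FAU had RPL3 and RPS23 had RPL37A among their 3 nearest, and RPL19 had RPL35 and also RPL35A of the scaffold 21 trio. Of the 20 nearest genes, 14 were TOP orthologs for RPL35A and RPL19, 12 for RPL8, 11 for FAU, 9 for RPS23 and 6 for RPL17. RPL4, RPS27A and NAP1L1 had 0 of 20.

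For scale, adjacent models of the whole annotation were compared in the same way, with no test. In 3306 pairs on 1 strand with a gap of at most 60 bases, the 2 changes under Torin 1 differed by a median of 0.29 on the log2 scale in RNA and 0.64 in RPFs. With wider gaps (5222 pairs) the medians were 0.55 and 0.79, and head to head (1921 pairs) 0.81 and 0.88. The 5 adjacent pairs among the 9 genes had medians of 0.18 in RNA and 0.22 in RPFs. The sets of pairs were not matched for count level, and counting error is larger where counts are few. The smaller medians of the 5 pairs therefore cannot be read as closer movement of these neighbours. RPL17 and RPL8 differed least, by 0.02 in RNA and 0.001 in RPFs. RPL19 and RPS27A differed most in RPFs, by 0.70, and NAP1L1 and RPL35A most in RNA, by 0.38.

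Another 16 pairs of TOP orthologs have consecutive identifiers, all 16 on 1 strand with gaps of at most 60 bases. Their changes differed by a median of 0.04 in RNA and 0.31 in RPFs, and the median SD of their log2 ratio was 0.132 in RNA and 0.462 in RPFs. Both adjacent pairs with NAP1L1 had larger RNA SDs (0.587 and 0.674) than the widest of these 16 (0.478, RPL7L1 and RPL32). This rested on RNA Torin 1 replicate 1: without it their SDs were 0.168 and 0.281. Those values lie within the range that the 16 pairs had with all libraries (0.0436 to 0.478). RPL8 and RPL17 had a smaller RPF SD (0.195) than the lowest of the 16 (0.262). Counting error alone would give about 0.200 for RPL8 and RPL17. The pairs were not matched for count level, so this cannot be read as closer movement.

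The runs that hold the 9 genes also hold other models, most of which stood far below the ribosomal protein genes in RNA. GSOIDG00000666001, the first gene of the RPL17 run and 35 bases upstream, averaged 67.3 RPKM in Torin 1 and 102 RPKM in DMSO, and RPL17 had 19.7 to 64.3 times its RNA per coding base over the 6 libraries. GSOIDG00013613001, 34 bases upstream of RPL19, averaged 83.9 RPKM in Torin 1 and 117 RPKM in DMSO, so that RPL19 had 27.04 to 55.01 times its RNA. GSOIDG00007832001, 37 bases upstream of RPL35A, averaged 60.2 RPKM in Torin 1 and 89.8 RPKM in DMSO, and RPL35A had 15.2 to 55.2 times its RNA. Downstream of FAU by 11 bases, GSOIDG00000871001 averaged 29.6 RPKM in Torin 1 and 40.6 RPKM in DMSO, and FAU had 49.85 to 97.1 times its RNA. The next model of that run, GSOIDG00000872001, was closer, with 425 RPKM in Torin 1 and 398 RPKM in DMSO, and FAU had 3.44 to 7.13 times its RNA. Across all 3306 close head-to-tail pairs the median difference in RNA level was 1.92-fold, with an upper quartile of 3.53-fold.

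In RPFs the step from GSOIDG00000666001 to RPL17 was smaller and varied more, 1.96 to 37.9 times over the 6 libraries. That model had a log2 ratio of RPFs to RNA of 1.26 in Torin 1 and 0.97 in DMSO, where RPL17 had −1.88 and −1.05, and the difference between the 2 genes was not tested. The models that flank the 4 groups (8 in all, 1 of them with 13 reads and not tested) had 0 adjusted calls by edgeR in the 5 comparisons. At an unadjusted p under 0.05, GSOIDG00007828001, which lies 69 bases downstream of RPS23 and outside its run, was higher in Torin 1 RNA. So were 1465 of 14574 genes. Its log2 fold change was 1.91 (unadjusted p = 0.0309, adjusted p = 0.452), while RPS23 had −0.24. RNA of GSOIDG00007828001 stood at 39.0, 18.2 and 104 RPM in Torin 1, against 17.6, 19.3 and 8.34 RPM in DMSO. At that threshold it also had higher RPFs than RNA in DMSO (2.125, as had 2353 genes). GSOIDG00007832001 had lower RPFs than RNA in DMSO (−1.53, 11.3% of all genes) and in Torin 1 (−1.805, 9.21%).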

How the data were processed

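Per the labels, total RNA and RPFs of day 6 females were sequenced after 1.5 h with 1 μM Torin 1 or DMSO, with 3 replicates in each of 4 groups. RNA and RPFs of 1 treatment and number came from the same collection, according to the study's methods. The authors removed rRNA and tRNA reads (Bowtie2 2.1.0), mapped the rest to the genome (TopHat2 2.0.13) and counted reads per gene with featureCounts. The deposited values are raw counts per gene, with no normalization. Strand setting and treatment of reads with several positions are not given in the sources used here. The deposited annotation gives gene positions (18020 models, unit other), and 17113 of the 17212 genes in the table had a model. 0 sample columns were left unmapped. No genome of this build was at hand.

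The 9 genes, the list of TOP orthologs and all tests were chosen with earlier results of these data known. Named were the 9 genes, the models next to each group, the 3 nearest genes by SD where they are TOP orthologs, and the second RPL4 model. Some of these nearest genes are not reported here.

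The study's filter was applied, a sum of 100 or more reads across the 12 libraries. Counts were tested in R 4.3.3 with edgeR 4.0.16 (TMM, quasi-likelihood F-test) and Benjamini-Hochberg adjustment over all 14574 genes, at 0.05. The interaction of assay and treatment over all 12 libraries stood in for babel, which the study used. Scaling makes all changes relative to other genes. DESeq2 1.42.0 was an alternative. The scripts were tested on simulated data. Level ratios of neighbours (counts plus 0.5) were tested with two-sided exact sign-flip tests over 6 libraries, and treatments with two-sided exact permutation tests of 3 against 3 (Python 3.11.15), adjusted over the 6 pairs. Level steps along the runs were added after the data were seen. Intervals of shares are exact (Clopper-Pearson, 95%) and, like the floor of 3 counts, cover counting error only.

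The pairing of same-numbered libraries was checked by the correlation over genes of their deviations from group means. RPFs and RNA share a collection by design, with correlations of 0.058, −0.067 and 0.077 in Torin 1 and −0.087, −0.155 and −0.201 in DMSO. Torin 1 and DMSO share only a number, with 0.642, −0.151 and 0.158 in RNA and −0.216, 0.065 and 0.036 in RPFs.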

Additional observations from a re-analysis of the deposited data

How the results depend on the processing

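Direction and side of the threshold held for 875 values of single genes or pairs under the alternatives, while 38 changed sign, 80 lost a call, 8 gained one and 1 moved. The 80 lost calls were level differences between neighbours with fewer than 6 libraries, where no p can pass: 0 of 6 pairs were called without any 1 library, without the collections numbered 2 or without the libraries in doubt, in RNA and in RPFs. Depth limits the RPF values, as 5 of 6 RPF libraries held 874562 counts or fewer.

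The scaling moved the median of all genes: with library totals it was −0.71 in efficiency (−0.46 with TMM), −0.12 for RPFs against RNA in DMSO (0.17) and −0.88 in Torin 1 (−0.42). All 9 genes kept negative values under each scaling.

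Counts of genes called depended on the setting. For RPFs under Torin 1, 4 genes were called without the filter, 46 without the libraries in doubt and 0 to 207 without 1 library. RNA had 81 with DESeq2. Efficiency had 145 with DESeq2 and 11 without the libraries in doubt. RPFs against RNA in DMSO had 1784 with DESeq2, 691 without both RNA libraries numbered 2, 2585 without the libraries in doubt and 0 to 2886 without 1 library (1166 in the main setting). In Torin 1 the same comparison had 3 without the filter, 148 with DESeq2, 1107 without the libraries in doubt and 0 to 561 without 1 library.

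With the replicate number or collection as a replicate block, RPFs against RNA in Torin 1 had 106 genes called, 0 of them among the 9. The block changed no other call on the 9 genes: median log2 changes of all genes were −0.16 in RPFs, 0.18 in RNA and −0.28 in efficiency, and RPL35A had −1.68 in RPFs with the block. In the paired form the ratio of RPS27A over RPL19 in RPFs differed by 0.64 (exact sign-flip p = 0.25).

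The values below changed sign under at least 1 alternative, and the cause was not tested. NAP1L1 had 0.35 in efficiency without the libraries in doubt, with RNA Torin 1 replicate 1 as the only Torin 1 RNA library left. RPL19 in RNA lay between −0.348 and 0.0563 without 1 library. The RPF share relative to the RNA share lay between −0.42 and 0.11 for RPS23 over NAP1L1 and between −0.33 and 0.25 for NAP1L1 over RPL35A (−0.18 without the collections numbered 2). Between treatments, the RNA ratio lay between −0.0633 and 0.0751 for RPL8 over RPL17, −0.147 and 0.0869 for RPS27A over RPL19, −0.0553 and 0.690 for RPS23 over NAP1L1, −0.160 and 0.0084 for RPS23 over RPL35A, and −0.837 and 0.0363 for NAP1L1 over RPL35A. The RPF ratio lay between −0.17 and 0.12 for RPL8 over RPL17, −0.0502 and 0.610 for FAU over RPL4, −0.15 and 0.43 for RPS23 over NAP1L1, and −0.24 and 0.38 for NAP1L1 over RPL35A. Without the collections numbered 2 it was 0.10 for RPL8 over RPL17 and −0.14 for FAU over RPL4, and without the libraries in doubt 0.0517, −0.0502 and, for NAP1L1 over RPL35A, −0.21. The RPF ratio relative to RNA lay between −0.20 and 0.17 for RPL8 over RPL17 (0.0783 without the collections numbered 2 and 0.42 without the libraries in doubt), −0.30 and 0.33 for FAU over RPL4, −0.84 and 0.48 for RPS23 over NAP1L1, and −0.28 and 1.18 for NAP1L1 over RPL35A. Without Torin 1 replicate 1, NAP1L1 over RPL35A had 0.0363 in RNA (−0.48 with all libraries) and −0.28 in RPFs relative to RNA (0.50), and RPS23 over NAP1L1 had 0.48 in RPFs relative to RNA (−0.21).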
